A study of Mus musculus with 75 samples.

Results

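Tbx18, Npr3, Pcdh17, Pcdh10, Sema3d, Msc, Kdr, Thbs1, Rnf128 and Spp1 are 10 of the 52636 entries in a gene count table from mouse embryonic stem cells that lacked one of the enhancers named Cyp26-E1 and Cyp26-E2. They were chosen by their fold changes in this table: their counts lay far above wild type in one or both of these deletions, and their levels in those libraries are given as a description, with no test. The same genes were then read in 14 libraries that had no part in the choice, from cells in which the retinoic acid receptor genes Rara and Rxra had been knocked out or overexpressed, and there they were tested.

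All 23 RNA-seq libraries came from E14 cells, a mouse embryonic stem cell line, kept 24 h in 2 µM retinoic acid (RA) after removal of LIF and 2i, the additives that hold such cells undifferentiated. Cyp26-E1-KO and Cyp26-E2-KO cells were set against WT-Cyp26 (n = 3 each, 28397794 to 33601996 counts per library). Cells of the Rara-KO and Rxra-KO groups, and RARX-DKO cells, labelled as a knockout of both receptors, were set against WT-RARX (n = 2 each, 7408691 to 13052102 counts). Rara-OE and Rxra-OE cells, which overexpress one receptor, were set against the vector control V-OE (n = 2 each, 7835519 to 11453063 counts). Every group, controls included, had received RA, and the labels give neither the extent of a deletion, nor the number of clones, nor the promoter of the transgenes. The mutant columns of the enhancer table are coded Ac and b and were read as Cyp26-E1-KO and Cyp26-E2-KO through the codes of other tables, a match that is unsure, and the titles of the Cyp26-E2 samples do not carry the word KO. The other 52 samples of the 75 in the series, from 4C-seq and H3K27Ac ChIP-seq, were not analysed here. The labels call the replicates biological without naming separate cultures, so p-values measure only the spread between these libraries, which may be technical.

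Retinoic acid enters the nucleus, binds RAR receptors paired with RXR receptors on DNA, and switches on developmental genes that include Hox genes and its own degrading enzymes. Those enzymes, the cytochromes Cyp26a1, Cyp26b1 and Cyp26c1, close a feedback loop that limits how much RA a cell sees. The 10 genes are not parts of one pathway. Tbx18 and Msc encode transcription factors, a T-box factor of the epicardium and sinus node and a basic helix-loop-helix repressor also called musculin. Kdr encodes the main VEGF receptor of endothelium and its mesodermal precursors, and Npr3 the natriuretic peptide receptor that clears its ligands. Pcdh17 and Pcdh10 are delta protocadherins, which join like cells, and Sema3d is a secreted semaphorin, a guidance cue. Thbs1 (thrombospondin 1) and Spp1 (osteopontin) are secreted matricellular proteins, and Rnf128, also called GRAIL, is a membrane-bound ubiquitin ligase first known from T cell anergy.

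The genes lie on 8 chromosomes (mm10, GENCODE vM21): Tbx18 on chromosome 9 from 87702800 to 87731260, Npr3 on 15 from 11839896 to 11907287, Pcdh17 on 14 from 84443563 to 84539002, Pcdh10 on 3 from 45378398 to 45435623, Msc on 1 from 14753346 to 14755992, Thbs1 on 2 from 118111876 to 118127133 and Rnf128 on X from 139563316 to 139673145. Sema3d (12383385 to 12588948), Kdr (75932827 to 75978458) and Spp1 (104435118 to 104441050) share chromosome 5. RefSeq promoter windows of GRCm38.p6, running from 250 bases before to 50 after a start, were on hand for 8 of the 10 genes, and Msc and Thbs1 had no entry. The windows of Tbx18, Kdr and Rnf128 are printed because they were the ones of 9 windows (Spp1 has 2) that held a searched 6-base unit. Such a unit is a part of the repeats that RA receptors bind and not a full site. It was searched on both strands in 4 spellings: AGGTCA, held by 16.3% of all promoter windows, GGTTCA, held by 10.4%, AGTTCA, held by a share between these, and GGGTCA, held by 13.7%. The window of Npr3, a gene lowered in both overexpressing groups below, is printed beside them and held none. Sequences run 5′ to 3′ on the gene's own strand, and capitals mark such a unit, which in Kdr and Rnf128 is written as its reverse complement.
Tbx18 (chr9:87731211-87731510, minus strand): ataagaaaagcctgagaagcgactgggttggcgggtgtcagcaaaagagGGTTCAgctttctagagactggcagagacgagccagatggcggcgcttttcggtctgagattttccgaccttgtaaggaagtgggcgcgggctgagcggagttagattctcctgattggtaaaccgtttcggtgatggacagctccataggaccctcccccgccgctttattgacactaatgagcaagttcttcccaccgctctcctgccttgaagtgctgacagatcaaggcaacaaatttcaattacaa
Kdr (chr5:75978406-75978705, minus strand): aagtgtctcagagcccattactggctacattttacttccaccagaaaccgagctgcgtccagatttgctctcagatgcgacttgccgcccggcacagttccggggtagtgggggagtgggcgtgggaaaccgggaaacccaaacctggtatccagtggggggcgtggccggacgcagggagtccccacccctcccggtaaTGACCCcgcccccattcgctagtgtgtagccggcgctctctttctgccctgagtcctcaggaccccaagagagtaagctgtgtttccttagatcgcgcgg
Rnf128 (chrX:139610370-139610669, plus strand): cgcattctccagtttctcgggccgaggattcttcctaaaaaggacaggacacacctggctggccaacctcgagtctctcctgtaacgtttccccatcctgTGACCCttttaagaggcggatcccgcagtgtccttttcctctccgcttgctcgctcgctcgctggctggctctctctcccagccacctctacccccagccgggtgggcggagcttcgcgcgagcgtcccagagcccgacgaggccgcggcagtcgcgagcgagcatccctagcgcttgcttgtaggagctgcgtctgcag
Npr3 (chr15:11907322-11907621, minus strand): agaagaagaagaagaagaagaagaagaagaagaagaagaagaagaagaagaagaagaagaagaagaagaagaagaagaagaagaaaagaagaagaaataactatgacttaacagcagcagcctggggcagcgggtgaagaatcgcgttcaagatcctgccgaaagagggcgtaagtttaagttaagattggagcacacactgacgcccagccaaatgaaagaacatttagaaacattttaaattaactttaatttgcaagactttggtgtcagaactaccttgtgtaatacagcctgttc
The unit lay 201 bases before the start in Tbx18, 50 before it in Kdr and 150 before it in Rnf128. The Rnf128 window, from 139610370, lies inside the gene model, which begins at 139563316, so its start is one within the gene. Of all 32851 promoter windows, 43.7% held at least 1 of the 4 spellings, so 3 of 9 windows is no higher a share than among promoters at large. The direct repeat of AGGTCA with any 5 bases between its copies, the spacing that RAR and RXR pairs prefer, was in none of the 9 windows and in 0.00913% of all windows. Base composition set the genes apart from each other: GC content was 60.7% to 65.0% in Kdr, Pcdh10, Rnf128 and Pcdh17, against a median of 52.7% over all windows, and 36.7% and 45.3% in those of Spp1. The upstream window of Spp1 also held the letters TATAAA, near its upstream end and away from the start. Of all windows, 13.6% held these letters on either strand. Npr3, with 39.0%, and Sema3d, with 49.7%, were below the median, and Tbx18, with 51.7%, was close to it.

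In the enhancer table the genes manipulated by the deletions differed between them. Cyp26a1 stood at 49.5 ± 13.7 CPM (counts divided by the TMM-scaled library size, CPM, SD, n = 3) in Cyp26-E1-KO cells, against 377.1 ± 8.8 CPM in WT-Cyp26 cells, and Cyp26c1 at 1.41 ± 0.57 CPM against 14.5 ± 3.16 CPM. Both fell by edgeR's quasi-likelihood test over all genes (log2 fold changes -2.93, adjusted p = 2.26e-06, and -3.36, adjusted p = 5.87e-07). Cyp26b1 fell in both deletions, to 64.7 ± 2.25 CPM in Cyp26-E1-KO cells and 17.8 ± 0.88 CPM in Cyp26-E2-KO cells, against 80.8 ± 2.98 CPM in WT-Cyp26 cells (log2 fold changes -0.32, adjusted p = 0.00382, and -2.18, adjusted p = 8.96e-10). In Cyp26-E2-KO Cyp26a1 stood at 380.3 ± 15.2 CPM (adjusted p = 0.975) and Cyp26c1 at a log2 fold change of -0.32 (adjusted p = 0.329). One library, Cyp26-E1-KO replicate 2, stood apart: variance within that group was 34.3 times the counting variance, and 6.08 times without it, which is near the 6.06 of WT-Cyp26 and the 7.58 of Cyp26-E2-KO. Values of the 10 genes in that library are given below with the others of its group.

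Among the transcription factors, Tbx18 had the highest fold change of the 10 genes. It stood at 7.13, 7.77 and 6.94 CPM in the Cyp26-E1-KO libraries and at 4.10, 3.49 and 4.04 CPM in the Cyp26-E2-KO libraries, against 0.648, 0.299 and 0.534 CPM in WT-Cyp26. Each deletion group lay wholly above wild type, and the Cyp26-E2-KO libraries lay wholly below those of Cyp26-E1-KO. The log2 fold change was 3.87 ± 0.24 (SE of the fit) in Cyp26-E1-KO and 2.96 ± 0.24 in Cyp26-E2-KO, rank 4 and rank 9 of 18768 tested genes by size of rise. Msc stood at 14.1, 10.6 and 10.3 CPM in Cyp26-E1-KO and at 10.2, 10.0 and 11.6 CPM in Cyp26-E2-KO, against 2.85, 3.36 and 2.47 CPM in WT-Cyp26. Its levels in the deletion groups overlapped, with log2 fold changes of 2.01 ± 0.17 and 1.87 ± 0.17. These are bulk counts, in which more cells of a kind and more RNA per cell cannot be told apart.

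Of the receptors, Npr3 stood at 16.8, 21.7 and 15.8 CPM in Cyp26-E1-KO and at 7.42, 6.75 and 6.82 CPM in Cyp26-E2-KO, against 2.33, 1.70 and 1.10 CPM in WT-Cyp26. Its levels formed 3 separate steps, the highest in Cyp26-E1-KO, where replicate 2 was the top library. The log2 fold changes were 3.40 ± 0.21 and 2.03 ± 0.22. Kdr had no such step between the deletions: 10.7, 12.1 and 12.9 CPM in Cyp26-E1-KO and 10.0, 11.1 and 9.62 CPM in Cyp26-E2-KO, against 3.01, 2.76 and 2.70 CPM in WT-Cyp26. All 6 deletion libraries lay above the 3 of wild type, with log2 fold changes of 2.07 ± 0.14 and 1.85 ± 0.14.

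Per kilobase of exon the adhesion and guidance genes were the least abundant, as given below. Pcdh17 stood at 9.14, 9.82 and 8.91 CPM in Cyp26-E1-KO and at 3.69, 5.92 and 4.39 CPM in Cyp26-E2-KO, against 0.972, 0.931 and 1.37 CPM in WT-Cyp26 (log2 fold changes 3.09 ± 0.22 and 2.09 ± 0.22). Pcdh10 stood at 4.30, 6.14 and 6.13 CPM in Cyp26-E1-KO and at 3.54, 2.33 and 3.04 CPM in Cyp26-E2-KO, against 0.940, 0.499 and 1.07 CPM in WT-Cyp26 (2.72 ± 0.28 and 1.83 ± 0.29). Sema3d stood at 3.42, 4.63 and 5.60 CPM in Cyp26-E1-KO and at 1.61, 2.19 and 3.36 CPM in Cyp26-E2-KO, against 0.681, 0.399 and 1.20 CPM in WT-Cyp26 (2.57 ± 0.37 and 1.65 ± 0.37). In each of these genes the 3 groups followed the same order without overlap, but in Sema3d the gap between the lowest Cyp26-E1-KO library and the highest Cyp26-E2-KO library was narrow, at 3.42 and 3.36 CPM.

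The abundant genes had the smallest errors. Thbs1 stood at 107.5, 110.1 and 111 CPM in Cyp26-E1-KO and at 55.3, 63.2 and 61.5 CPM in Cyp26-E2-KO, against 20.4, 18.1 and 18.8 CPM in WT-Cyp26 (log2 fold changes 2.52 ± 0.08 and 1.65 ± 0.08). Rnf128 stood at 124, 134 and 127 CPM in Cyp26-E1-KO and at 77.9, 84.9 and 82.0 CPM in Cyp26-E2-KO, against 25.9, 26.6 and 26.6 CPM in WT-Cyp26 (2.29 ± 0.07 and 1.63 ± 0.07). Both genes again formed 3 steps. Spp1 stood at 380.3, 315 and 358 CPM in Cyp26-E1-KO and at 320.4, 342 and 323 CPM in Cyp26-E2-KO, against 119.9, 126 and 124 CPM in WT-Cyp26. Its deletion groups overlapped, and its log2 fold changes of 1.51 ± 0.08 and 1.41 ± 0.07 were the smallest of the 10, rank 271 and rank 231 of all tested genes.

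**Figure D1:**
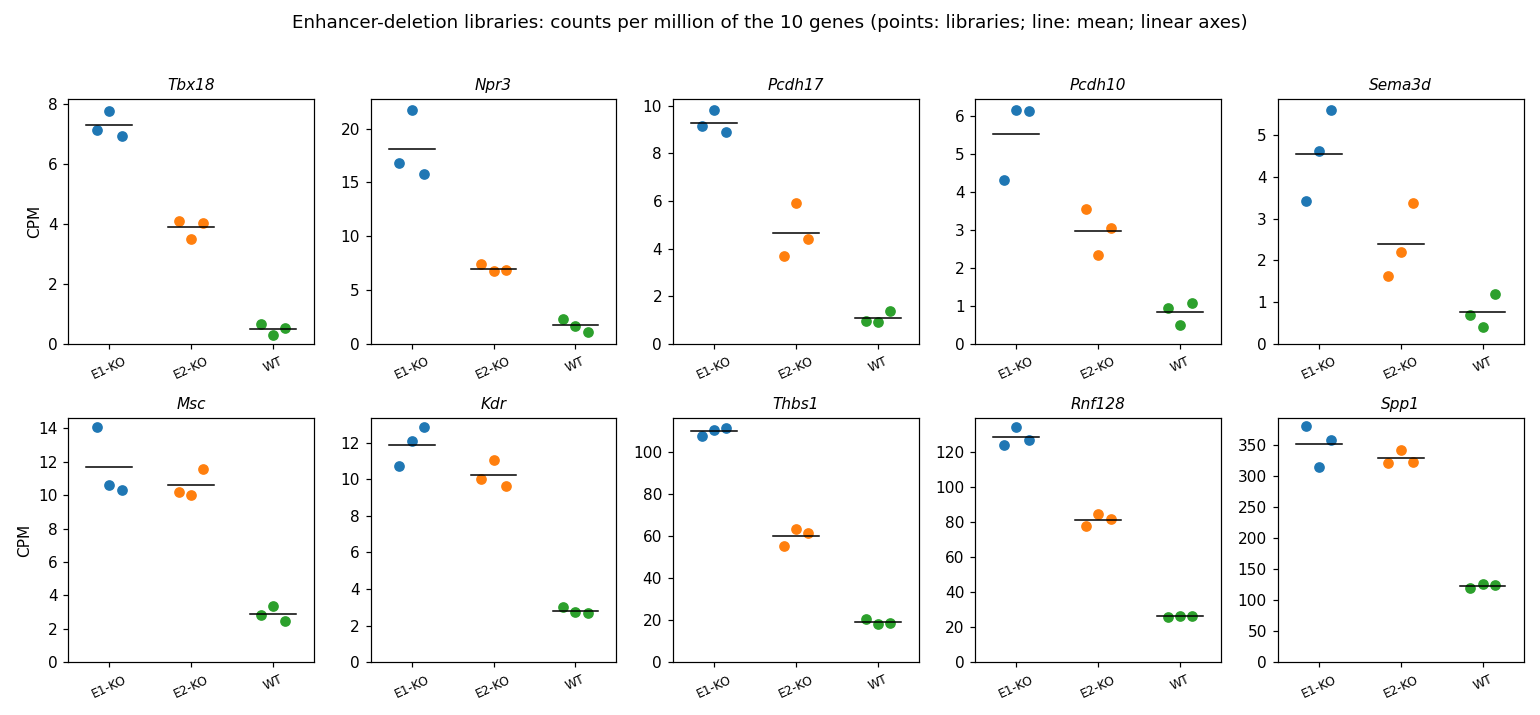
CPM (linear axes) of the 10 genes in the 9 enhancer-deletion libraries, 1 point per library with a line at the group mean, Cyp26-E1-KO and Cyp26-E2-KO left of WT-Cyp26. In every panel all 6 deletion libraries lie above the 3 of wild type, and in all panels but those of Msc, Kdr and Spp1 the Cyp26-E2-KO points lie below those of Cyp26-E1-KO.

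All 10 genes thus lay above wild type without overlap in both deletions, as 20% (Cyp26-E1-KO) and 20.7% (Cyp26-E2-KO) of the tested genes did, counts that the choice of the genes fixed. Set directly against Cyp26-E1-KO, the Cyp26-E2-KO libraries were lower without overlap in 7 of the 10 genes (11.7% of all tested genes were), again as a description. The log2 differences of these 7 ran from -0.66 in Rnf128 to -1.37 in Npr3. In Msc, Kdr and Spp1, where the groups overlapped, they were -0.14, -0.22 and -0.10 with SEs of 0.15, 0.13 and 0.07. Per kilobase of merged exons, which allows levels of different genes to be compared, the order in Cyp26-E1-KO was Spp1 (213 CPM per kb), Rnf128 (37.1), Thbs1 (18.1), Msc (4.58), Npr3 (1.93), Tbx18 (1.54), Kdr (1.32), Pcdh17 (0.715), Sema3d (0.529) and Pcdh10 (0.348). In WT-Cyp26 it was Spp1 (74.9), Rnf128 (7.62), Thbs1 (3.14), Msc (1.14), Kdr (0.313), Npr3 (0.182), Tbx18 (0.105), Sema3d (0.0885), Pcdh17 (0.0839) and Pcdh10 (0.0526). The 4 most abundant genes kept their order, while Kdr stood above Npr3 and Tbx18 in wild type and below them in Cyp26-E1-KO.

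**Figure D2:**
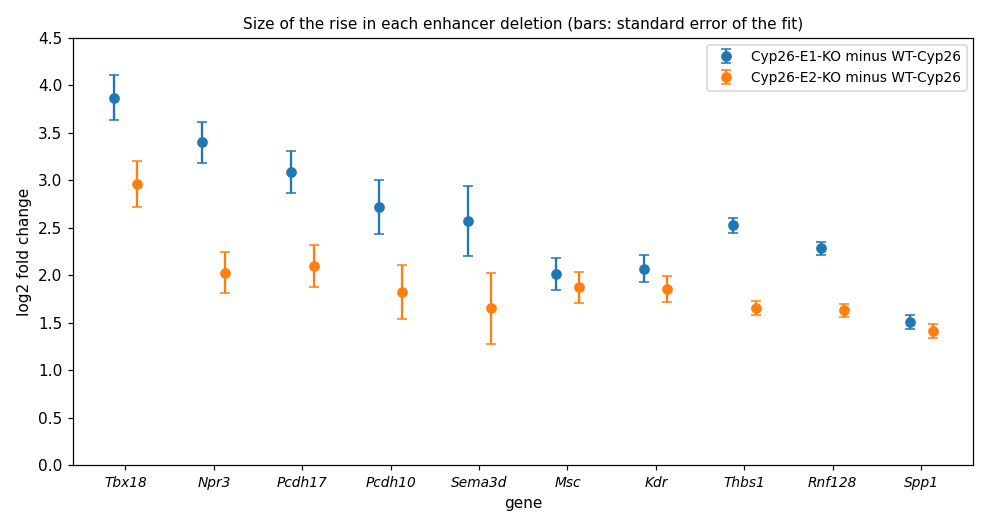
log2 fold change (vertical axis) of each of the 10 genes (horizontal axis) in Cyp26-E1-KO and Cyp26-E2-KO, each against WT-Cyp26, with the standard error of the fit as bars. Tbx18 has the largest values, 3.87 and 2.96, and Spp1 the smallest, 1.51 and 1.41; both comparisons share the same 3 wild-type libraries.

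Genes around the 10 were read as well. Within 5 Mb of each gene, the median log2 fold change of the 8 to 118 other tested genes lay between -0.19 and 0.07 in Cyp26-E1-KO and between -0.18 and 0.12 in Cyp26-E2-KO. In Cyp26-E1-KO, where 13.1% of all tested genes rose and 12.1% fell, neighbours fell more often than they rose around Tbx18 (5 of 57 rose, 14 fell), Rnf128 (7 of 71 rose, 22 fell), Kdr (3 of 54 rose, 7 fell), Sema3d (2 of 28 rose, 4 fell) and Pcdh10 (2 of 24 rose, 3 fell). They rose more often around Npr3 (10 of 33 rose, 2 fell), Spp1 (12 of 88 rose, 8 fell) and Pcdh17 (2 of 8 rose, 1 fell), and as often as they fell around Msc (5 each of 38) and Thbs1 (12 each of 118). In Cyp26-E2-KO, where 9.28% of all tested genes rose and 8.2% fell, the neighbours that rose outnumbered those that fell around Npr3, Msc and Spp1 and did not around the other 7. The strand setting of the counting is not given in the sources used here, and 5 of the genes share exon bases with an antisense or opposite-strand model: Tbx18, Npr3, Pcdh10, Msc and Thbs1. Spp1 shares 309 exon bases with Gm42793 on its own strand, which had at most 53 counts in any library. In the enhancer table the opposite-strand models that were in the table had at most 10 counts in any library. In the other tables Gm9947, which shares 539 bases with Msc, reached 87 and 95 counts, beside 52 to 219 counts of Msc. In the receptor-knockout table Gm29233, which shares 208 bases with Thbs1, reached 22 counts, beside 13 to 229 counts of Thbs1. D030062O11Rik, which shares 970 bases with Tbx18, reached 16 counts in that table, beside 5 to 43 counts of Tbx18. Reads of these pairs cannot be told apart there.

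Relatives of the 10 genes moved in both directions, each tested over all genes. Of 12 other T-box genes tested, 4 rose and 1 fell in Cyp26-E1-KO, and 3 rose and 1 fell in Cyp26-E2-KO. Tbx1, a factor of pharyngeal and heart development, rose to 0.746 ± 0.407 CPM in Cyp26-E1-KO and 1.08 ± 0.433 CPM in Cyp26-E2-KO, against 0.132 ± 0.133 CPM in WT-Cyp26 (log2 fold changes 2.47 and 3.00, adjusted p = 0.0266 and 0.0116), levels of few counts. Tbx15 rose to 3.36 ± 0.666 and 2.94 ± 0.256 CPM, against 1.24 ± 0.0937 CPM in WT-Cyp26. Of 10 tested tissue-specific basic helix-loop-helix genes, 3 rose in each deletion and 1 fell in Cyp26-E2-KO. Hand1, of trophoblast and heart, stood at 9.46 ± 0.641 CPM in Cyp26-E1-KO and 5.58 ± 0.987 CPM in Cyp26-E2-KO, against 1.85 ± 0.371 CPM in WT-Cyp26 (log2 fold changes 2.35 and 1.59, adjusted p = 9.52e-07 and 6.74e-05). Twist1 rose to 13.5 ± 2.37 and 10.7 ± 2.16 CPM, against 5.54 ± 0.522 CPM in WT-Cyp26.

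Partners on the cell surface and in the matrix were as mixed. Of 5 tested delta protocadherins, 3 rose and 1 fell in Cyp26-E1-KO, and 0 rose and 1 fell in Cyp26-E2-KO. Pcdh18 stood at 3.34 ± 0.334 CPM in Cyp26-E1-KO, against 1.15 ± 0.313 CPM in WT-Cyp26 (log2 fold change 1.54), and Pcdh1 fell in both deletions (-0.82 and -0.85). Of 13 class 3 semaphorins and their receptors, 3 rose and 4 fell in Cyp26-E1-KO, and 1 rose and 3 fell in Cyp26-E2-KO. The receptor gene Plxna4 fell in both (-1.81 and -1.38). Of 9 VEGF ligands and receptors other than Kdr, 1 rose and 2 fell in Cyp26-E1-KO (2 and 3 without Cyp26-E1-KO replicate 2), and 0 rose and 2 fell in Cyp26-E2-KO. Vegfa, whose product binds Kdr, fell to 34.8 ± 6.33 CPM in Cyp26-E1-KO and 31.3 ± 1.51 CPM in Cyp26-E2-KO, against 71.0 ± 1.86 CPM in WT-Cyp26 (log2 fold changes -1.03 and -1.18, adjusted p = 1.1e-05 and 8.41e-06). The receptor and its ligand gene thus stood on opposite sides of wild type in both deletions.

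Of 4 tested genes of the natriuretic peptide system, 2 rose in Cyp26-E1-KO and 1 in Cyp26-E2-KO, where Furin, a protease that cuts peptide precursors, was the one that rose in both (0.40 and 0.40). Of 9 thrombospondins, their receptors and targets, 3 rose and 1 fell in each deletion. Thbs2 stood at 3.13 ± 0.395 CPM in Cyp26-E1-KO and 1.79 ± 0.509 CPM in Cyp26-E2-KO, against 0.541 ± 0.220 CPM in WT-Cyp26 (log2 fold changes 2.52 and 1.72), and Tgfb2 rose by 2.04 and 1.58. Of 9 osteopontin receptors and bone matrix genes, 3 rose in Cyp26-E1-KO and 2 in Cyp26-E2-KO, and none fell. Itga8, an integrin chain that binds osteopontin, led them at 17.1 ± 3.67 and 8.49 ± 0.417 CPM, against 4.64 ± 0.408 CPM in WT-Cyp26. Of 6 tested membrane ubiquitin ligases of the Rnf128 family, 3 rose and 1 fell in Cyp26-E1-KO and 2 rose in Cyp26-E2-KO, with Rnf167 higher in both (0.37 and 0.52). Of 6 epicardial genes, the tissue that Tbx18 marks, 1 rose and 1 fell in Cyp26-E1-KO and 2 rose in Cyp26-E2-KO; Aldh1a2, an enzyme that makes RA, rose in both (0.80 and 0.76).

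Marker lists of cell types that the cultures could hold were read beside these values, and their part in the levels of the 10 genes was not tested. Of 13 endothelial markers tested, 5 rose and 2 fell in Cyp26-E1-KO and 2 rose in Cyp26-E2-KO, with Emcn at 0 in all 9 libraries. The summed endothelial level was 161.7 to 165 CPM in Cyp26-E1-KO and 164 to 175 CPM in Cyp26-E2-KO, against 162 to 169 CPM in WT-Cyp26. Neural crest markers rose in 6 of 11 cases in each deletion, with 1 that fell in Cyp26-E2-KO, and summed to 90.0 to 98.3 CPM and 84.4 to 89.1 CPM, against 57.2 to 60.5 CPM in WT-Cyp26. Trophoblast markers rose in 6 of 10 and 3 of 10 cases and summed to 137.5 to 147 CPM and 98.2 to 116 CPM, against 90.6 to 97.8 CPM in WT-Cyp26. Mesoderm markers summed to 132 to 137 CPM and 149 to 155 CPM, against 107 to 115 CPM in WT-Cyp26 (2 of 11 rose and 1 fell in Cyp26-E1-KO, 4 rose in Cyp26-E2-KO), with Msgn1 at 0. Extraembryonic endoderm markers summed to 2327 to 2869 CPM and 2316 to 2375 CPM, against 1953 to 2058 CPM in WT-Cyp26 (7 of 16 rose and 4 fell in Cyp26-E1-KO, 11 rose in Cyp26-E2-KO), with Ttr at 0.

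Markers of undifferentiated cells summed to 2087 to 2288 CPM in Cyp26-E1-KO and 1984 to 2107 CPM in Cyp26-E2-KO, against 2417 to 2453 CPM in WT-Cyp26, and 5 of 12 fell in each deletion, with 3 and 1 that rose. Fibroblast markers summed to 76.0 to 80.2 CPM and 95.3 to 97.2 CPM, against 86.0 to 92.0 CPM in WT-Cyp26, and neuroectoderm markers to 104.1 to 109 CPM and 81.3 to 89.0 CPM, against 90.3 to 90.8 CPM in WT-Cyp26. RA targets and genes of RA metabolism fell more often than they rose: 10 of 19 fell and 3 rose in Cyp26-E1-KO, and 6 fell and 2 rose in Cyp26-E2-KO. The falls took in all 3 Cyp26 genes in Cyp26-E1-KO and Cyp26b1 alone of them in Cyp26-E2-KO. Hoxb1, a classical RA target, fell to 22.9 ± 1.16 CPM in Cyp26-E1-KO, against 66.8 ± 2.35 CPM in WT-Cyp26.

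Genes whose profile over the 9 enhancer libraries was closest to the median profile of the 10 included Slitrk4, Hand1, Tmprss2 and Has2, with root mean square differences of 0.255, 0.264, 0.282 and 0.287 on the log2 scale. Among the 10 genes themselves this distance was smallest in Thbs1 (0.136) and largest in Tbx18 (0.975). Has2, which makes hyaluronan, averaged 14.2 CPM in Cyp26-E1-KO and 11.05 CPM in Cyp26-E2-KO, against 3.17 CPM in WT-Cyp26. In the overexpression table these profiles parted: in Rxra-OE against V-OE, Tmprss2, a membrane serine protease, rose (log2 fold change 2.76, adjusted p = 1.04e-14) and Has2 fell (-3.66, adjusted p = 1.42e-07).

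In the receptor-knockout table the targeted genes were read first. Rara fell to 4.86 ± 0.70 CPM in Rara-KO and 6.05 ± 0.68 CPM in RARX-DKO, against 104 ± 6.03 CPM in WT-RARX. Rxra counts stood at 17.2 ± 1.57 CPM in Rxra-KO and 20.6 ± 9.88 CPM in RARX-DKO, against 42.1 ± 5.49 CPM in WT-RARX (adjusted p = 0.0264 and 0.0654). The fall of Rxra in the libraries labelled RARX-DKO, at 13.6 and 27.6 CPM, was thus not called. The labels do not give the deleted part, so reads outside it may remain in the counts. Of the 10 genes, 7 passed the filter on low counts and were tested. The share of all genes whose groups lie apart without overlap was not counted in the receptor tables. Such orderings of libraries are given below as descriptions. In Rxra-KO 2 of the 7 rose, Thbs1 and Rnf128 (1.28% of all tested genes rose), and 6 of the 7, all but Spp1, had an unadjusted p under 0.05, as 16% of all tested genes did. In Rara-KO and in RARX-DKO 0 of 7 passed by edgeR and 0 by DESeq2 (0.645% and 2.24% of all genes passed in either direction), with 1 gene (Msc) and 2 genes (Sema3d and Msc) at an unadjusted p under 0.05, where 11% and 14.4% of all tested genes were. Sema3d reached 10 counts only in Rxra-KO replicate 2 (11) and RARX-DKO replicate 2 (14). It thus entered the test through groups where it was high, and its unadjusted p there is no separate support.

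Rnf128 stood at 32.6 and 28.8 CPM in Rara-KO, at 76.9 and 85.9 CPM in Rxra-KO and at 17.9 and 30.2 CPM in RARX-DKO, against 36.4 and 29.6 CPM in WT-RARX. Both Rxra-KO libraries lay above all 6 others. The log2 fold change was 1.30 ± 0.21 in Rxra-KO (adjusted p = 0.00763), -0.10 ± 0.22 in Rara-KO (adjusted p = 0.907) and -0.46 ± 0.22 in RARX-DKO (adjusted p = 0.366). Thbs1 stood at 3.21 and 2.95 CPM in Rara-KO, at 7.29 and 29.1 CPM in Rxra-KO and at 1.70 and 1.77 CPM in RARX-DKO, against 3.22 and 4.22 CPM in WT-RARX. The Rxra-KO libraries again lay above all others but far apart from each other. Its log2 fold change was 2.28 ± 0.52 in Rxra-KO (adjusted p = 0.0431), -0.28 ± 0.55 in Rara-KO (adjusted p = 0.897) and -1.10 ± 0.60 in RARX-DKO (adjusted p = 0.457).

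The difference between the mutants was tested directly for both genes. Rxra-KO exceeded Rara-KO by 1.41 ± 0.22 in Rnf128 (adjusted p = 0.00391) and by 2.56 ± 0.54 in Thbs1 (adjusted p = 0.0204), where 2 of 7 genes passed as higher and 2.19% of all genes did. RARX-DKO lay below Rxra-KO by -1.77 ± 0.22 in Rnf128 (adjusted p = 0.00168) and by -3.38 ± 0.58 in Thbs1 (adjusted p = 0.0113), where 2 of 7 passed as lower and 1.48% of all genes did. Between RARX-DKO and Rara-KO 0 of 7 passed by edgeR and 0 by DESeq2, and 0 had an unadjusted p under 0.05 (0.0122% of all genes passed). Fits without 1 library leave a group of 2 with a single library, which is then assumed to vary like the other groups. Without Rxra-KO replicate 2 the log2 fold change of Thbs1 was 0.97 and that of Rnf128 1.23, and neither was called. Without Rxra-KO replicate 1, where the group rests on replicate 2 alone, the log2 fold changes of Thbs1 and Rnf128 were 2.96 and 1.39. Both calls were also lost without a wild-type library, though the folds were of like size: Thbs1 stood at 2.11 without WT-RARX replicate 1 and 2.49 without replicate 2 (adjusted p = 0.258 and 0.318), and Rnf128 at 1.47 and 1.16 (adjusted p = 0.0601 and 0.216). Against Rara-KO, Thbs1 did not pass without Rxra-KO replicate 2 (log2 difference 1.26, adjusted p = 0.13) or either Rara-KO library (2.62 and 2.50, adjusted p = 0.106 and 0.204), and Rnf128 did not without Rara-KO replicate 2 (1.32, adjusted p = 0.0629). The difference of RARX-DKO from Rxra-KO in Thbs1 was -2.08 without Rxra-KO replicate 2 (adjusted p = 0.0389) and did not pass without RARX-DKO replicate 1 (adjusted p = 0.108). In a fit of Rxra-KO and WT-RARX alone Rnf128 passed (adjusted p = 0.00146), Msc passed (1.75, adjusted p = 0.0113) and Thbs1 did not (adjusted p = 0.155). In a fit of Rxra-KO and Rara-KO alone Thbs1 did not pass (adjusted p = 0.0533). In a fit of RARX-DKO and Rxra-KO alone Rnf128 passed (adjusted p = 0.0432) and Thbs1 did not (adjusted p = 0.0817). Of 16 extraembryonic endoderm markers, 11 rose with these genes in Rxra-KO against Rara-KO and 0 fell (8 rose without Rxra-KO replicate 2), while 12 fell with these genes in RARX-DKO against Rxra-KO and 0 rose (8 fell without Rxra-KO replicate 2), and their part in the differences was not tested.

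The other tested genes had larger means in Rxra-KO than in WT-RARX but did not pass. Msc stood at 13.8 and 10.7 CPM in Rara-KO, at 13.5 and 25.4 CPM in Rxra-KO and at 18.1 and 7.07 CPM in RARX-DKO, against 4.88 and 6.60 CPM in WT-RARX. All 6 mutant libraries lay above wild type, with log2 fold changes of 1.09, 1.75 and 1.13 (adjusted p = 0.374, 0.0601 and 0.244), and the Rxra-KO difference passed in DESeq2 (adjusted p = 0.00157), without the filter on low counts (adjusted p = 7.19e-07), in the fit of the 2 groups alone and without Rxra-KO replicate 1 (adjusted p = 0.0369). Npr3 stood at 5.14 and 10.3 CPM in Rara-KO, at 5.86 and 15.2 CPM in Rxra-KO and at 7.95 and 7.89 CPM in RARX-DKO, against 5.44 and 4.68 CPM in WT-RARX. Kdr stood at 0.749 and 4.04 CPM in Rara-KO, at 3.64 and 5.59 CPM in Rxra-KO and at 3.98 and 1.36 CPM in RARX-DKO, against 1.01 and 1.92 CPM in WT-RARX. All 4 Rxra-KO values of these genes lay above wild type, while the Rara-KO libraries of both genes fell on either side of a wild-type value. With 2 libraries per group such an order is no support for a rise. No difference passed in the fit of all groups (adjusted p = 0.244 for Npr3 and 0.273 for Kdr in Rxra-KO). That of Kdr in Rxra-KO passed without the filter on low counts (1.62, adjusted p = 0.0254). Spp1 stood at 220 and 244 CPM in Rara-KO, at 96.6 and 294 CPM in Rxra-KO and at 152 and 124 CPM in RARX-DKO, against 169 and 163 CPM in WT-RARX, so its Rxra-KO libraries lay on either side of all others.

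The rarest genes were near the limit of these shallower libraries. Sema3d, which was tested, had 5 and 11 counts in Rxra-KO and 5 and 14 in RARX-DKO, against 1 and 4 in WT-RARX (log2 fold changes 2.23 ± 1.00 and 2.46 ± 0.98, adjusted p = 0.294 and 0.253). The 11 and 14 counts were what let Sema3d pass the filter. Tbx18, which was not tested, had 5 and 5 counts in Rara-KO, 5 and 43 in Rxra-KO and 9 and 6 in RARX-DKO, against 10 and 15 in WT-RARX. Its 43 counts were again in Rxra-KO replicate 2, where Thbs1, Npr3, Msc, Kdr, Rnf128 and Spp1 also had their highest level of the table. Pcdh17 had 0 to 9 counts and Pcdh10 0 to 8 counts per library, with Pcdh10 at 0 in both WT-RARX and both RARX-DKO libraries, where 3 counts over the group would be 0.126 and 0.186 CPM. Pcdh17 and Pcdh10 did not pass the filter on low counts, and differences in them were not detectable at this depth. Without that filter Tbx18 was called in Rxra-KO against Rara-KO, where 1840 of all genes were, with its 43 counts in 1 library. Marker lists were read beside these values, and their part in the levels of the 10 genes was not tested. Of the 8 lists, 5 had summed levels in both Rxra-KO libraries above those of WT-RARX. Mesoderm markers summed to 54.8 to 79.2 CPM in Rxra-KO, against 43.1 to 45.3 CPM in WT-RARX (0 of 8 passed). Extraembryonic endoderm markers summed to 1627 to 1887 CPM, against 1189 to 1293 CPM in WT-RARX (2 of 16 rose). Neural crest markers summed to 75.0 to 121.7 CPM, against 57.2 to 59.1 CPM in WT-RARX (1 of 10 rose). Their median log2 fold change was -0.255, so sum and median differ in direction for this list. Neuroectoderm markers summed to 58.2 to 91.4 CPM, against 47.3 to 52.1 CPM in WT-RARX (0 of 7 passed), and markers of undifferentiated cells to 4310 to 4405 CPM, against 3638 to 3642 CPM in WT-RARX (3 of 11 rose). Fibroblast markers were lower, at 43.1 to 45.9 CPM against 52.7 to 55.1 CPM in WT-RARX (1 of 4 fell). Endothelial markers, at 227 to 235 CPM against 217 to 249.8 CPM in WT-RARX, and trophoblast markers, at 61.0 to 135 CPM against 110.3 to 118 CPM in WT-RARX, overlapped. Without Rxra-KO replicate 2, a setting chosen after seeing the data, 0 extraembryonic endoderm markers, 1 neural crest marker and 1 marker of undifferentiated cells rose, and 0 fibroblast markers fell.

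**Figure D3:**
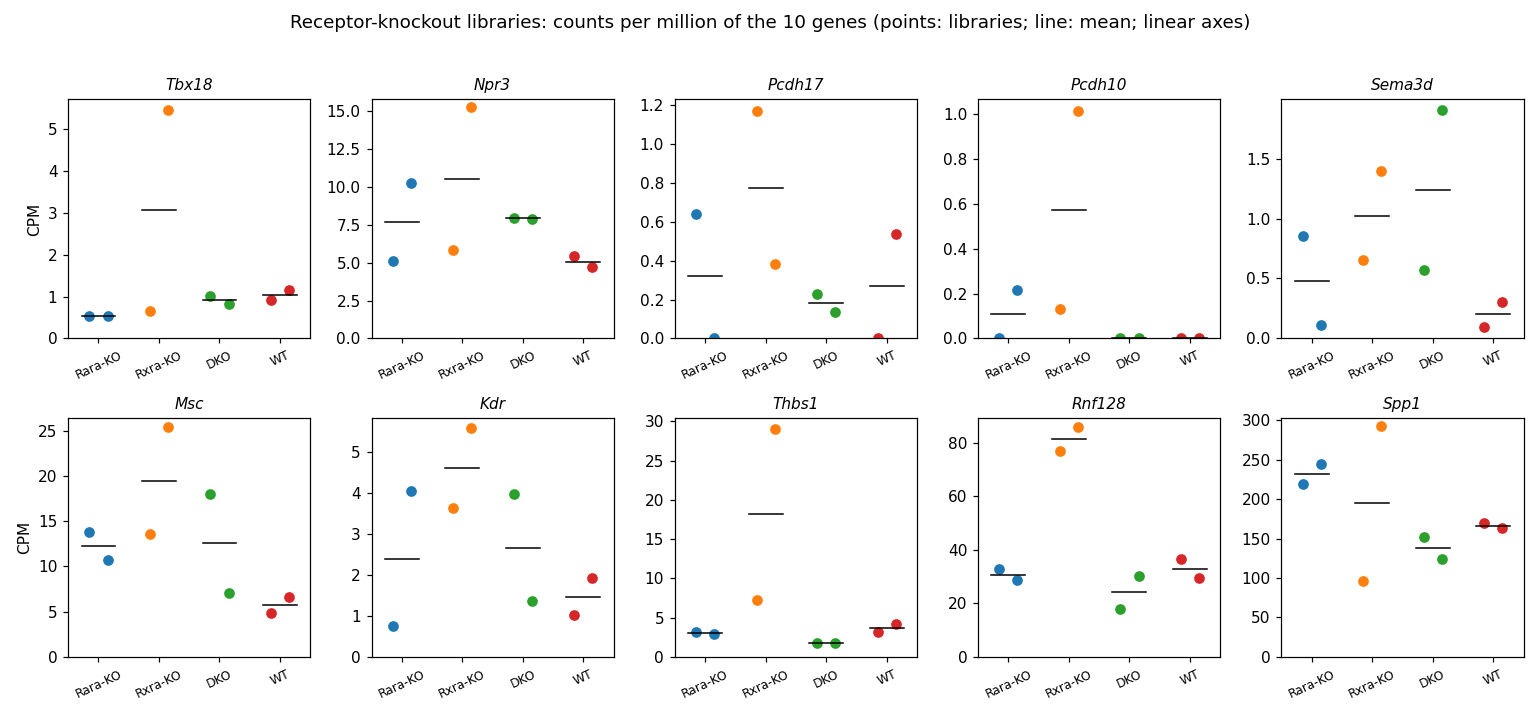
CPM (linear axes) of the 10 genes in the 8 receptor-knockout libraries, 1 point per library with a line at the group mean, the mutants left of WT-RARX (DKO is RARX-DKO). Rnf128 is the gene whose Rxra-KO points (76.9 and 85.9) sit close together above all others, while in Thbs1 (7.29 and 29.1) and Spp1 (96.6 and 294) they lie far apart.

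In the overexpression table most of the tested genes were lower in Rxra-OE than in V-OE, and Rnf128 was higher. Rxra stood at 203 ± 1.58 CPM in Rxra-OE, against 44.3 ± 1.93 CPM in V-OE, and Rara at 107.7 ± 4.58 CPM in Rara-OE, against 52.0 ± 0.59 CPM in V-OE. Of the 10 genes 6 were tested. In Rxra-OE 5 of 6 fell and 1 rose, in a comparison where 29.3% of all tested genes fell and 30.9% rose. In Rara-OE 2 of 6 fell and 0 rose (13.9% of all genes fell), and 3 of 6 had an unadjusted p under 0.05, as 38% of all tested genes did. In either direction 60.2% of all genes passed in Rxra-OE, so that a call there is common. Variance within the groups of this table was 1.89 to 2.27 times the counting variance, against 8 to 14.2 times in the receptor-knockout table. Calls and standard errors of the 2 tables are therefore not on a like footing.

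The 2 genes that fell in both were Npr3 and Msc. Npr3 stood at 15.6 and 17.8 CPM in Rara-OE and at 6.36 and 5.66 CPM in Rxra-OE, against 22.8 and 24.1 CPM in V-OE. Msc stood at 12.6 and 11.7 CPM in Rara-OE and at 6.48 and 6.17 CPM in Rxra-OE, against 23.9 and 22.3 CPM in V-OE. Each gene formed 3 steps with no overlap, lowest in Rxra-OE, an order given as a description because its share over all genes was not counted. The log2 fold changes of Npr3 were -0.50 ± 0.14 in Rara-OE (adjusted p = 0.00635) and -1.97 ± 0.16 in Rxra-OE (adjusted p = 1.38e-15), and those of Msc -0.93 ± 0.15 (adjusted p = 2.56e-06) and -1.87 ± 0.17 (adjusted p = 1.25e-14). Set directly against Rara-OE, Rxra-OE was lower in 4 of 6 genes (23.4% of all genes) and higher in 1 (23.8% of all genes), with Npr3 at -1.47 ± 0.17 and Msc at -0.94 ± 0.18 (adjusted p = 1.62e-10 and 1.41e-05). The Rara-OE call of Npr3 was lost in DESeq2 (adjusted p = 0.122), without V-OE replicate 2 (adjusted p = 0.0594) and without Rara-OE replicate 1 (adjusted p = 0.11).

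Kdr stood at 1.31 and 0.769 CPM in Rara-OE and at 0.463 and 0.423 CPM in Rxra-OE, against 2.17 and 2.14 CPM in V-OE. It fell in Rxra-OE (log2 fold change -2.26 ± 0.56, adjusted p = 4.48e-04) and did not pass in Rara-OE (-1.01 ± 0.49, adjusted p = 0.116), on counts of 4 to 21 per library. Thbs1 stood at 4.62 and 5.13 CPM in Rara-OE and at 1.97 and 2.45 CPM in Rxra-OE, against 3.87 and 4.18 CPM in V-OE. Against Rara-OE it was lower in Rxra-OE (-1.11, adjusted p = 0.00248), a call lost in DESeq2 (adjusted p = 0.0562). Its fall in Rxra-OE against V-OE (-0.85 ± 0.32, adjusted p = 0.0196) was lost in DESeq2 (adjusted p = 0.154), without V-OE replicate 2 (adjusted p = 0.09) and without Rxra-OE replicate 1 (adjusted p = 0.101). Spp1 stood at 262 and 267 CPM in Rara-OE and at 192 and 184 CPM in Rxra-OE, against 267 and 241 CPM in V-OE. Its fall in Rxra-OE was small but precise (-0.43 ± 0.05, adjusted p = 5.42e-11).

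Rnf128 was the gene that rose. It stood at 32.4 and 32.8 CPM in Rara-OE and at 152 and 154 CPM in Rxra-OE, against 31.2 and 29.6 CPM in V-OE. Both Rxra-OE libraries lay far above the other 4, with a log2 fold change of 2.33 ± 0.08 against V-OE (adjusted p = 4.37e-33) and of 2.23 ± 0.08 against Rara-OE (adjusted p = 7.64e-32), while Rara-OE stood at 0.10 ± 0.09 (adjusted p = 0.44). The 4 genes that were not tested had at most 11 counts in any library of this table. Tbx18 had 7 and 7 counts in Rara-OE and 10 and 11 in Rxra-OE, against 6 and 2 in V-OE. Sema3d had 4 and 3 counts in Rara-OE and 1 and 1 in Rxra-OE, against 9 and 5 in V-OE. Without the filter Sema3d was called in Rxra-OE.

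**Figure D4:**
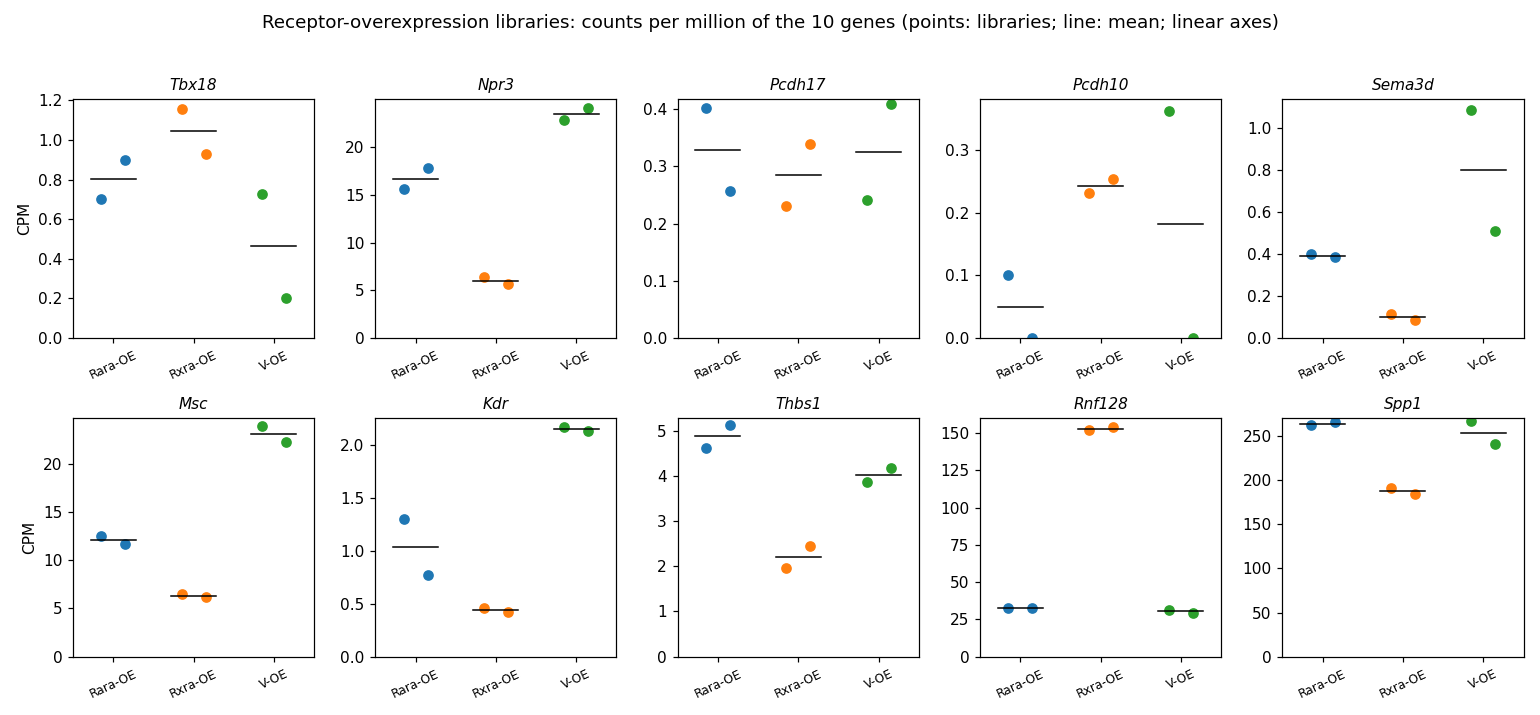
CPM (linear axes) of the 10 genes in the 6 receptor-overexpression libraries, 1 point per library with a line at the group mean, Rara-OE and Rxra-OE left of V-OE. Npr3 and Msc step down to Rxra-OE levels near 6 CPM, and Rnf128 stands at 152 and 154 CPM in Rxra-OE, against 31.2 and 29.6 CPM in V-OE.

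Other cell state genes moved in the same libraries. Markers of undifferentiated cells fell in 10 of 12 cases in Rxra-OE and in 8 of 12 in Rara-OE, where 4 rose, and summed to 5525 to 5618 CPM in Rara-OE and 2165 to 2183 CPM in Rxra-OE, against 6700 to 6867 CPM in V-OE. Extraembryonic endoderm markers rose in 16 of 16 cases in both groups and summed to 2207 to 2229 CPM and 2476 to 2497 CPM, against 985 to 1001 CPM in V-OE. Trophoblast markers rose in 9 of 10 cases in Rara-OE and 6 of 10 in Rxra-OE and summed to 582 to 634 CPM and 686 to 719 CPM, against 103 to 105 CPM in V-OE. Fibroblast markers rose in 3 of 4 cases in each group, with 1 that fell in Rxra-OE, and summed to 106 CPM in both Rara-OE libraries and 159 to 165 CPM in Rxra-OE, against 40.7 to 41.7 CPM in V-OE. Mesoderm markers summed to 99.8 to 100.2 CPM and 75.1 to 77.3 CPM, against 42.6 to 44.4 CPM in V-OE (3 of 12 rose in Rara-OE, 4 rose and 1 fell in Rxra-OE). Endothelial markers, which do not count Kdr, summed to 233 to 243 CPM and 189 to 194 CPM, against 273 to 289.5 CPM in V-OE, while of 8 tested 1 rose and 2 fell in Rara-OE and 3 rose and 1 fell in Rxra-OE. Neuroectoderm markers summed to 40.6 to 45.5 CPM and 31.6 to 32.6 CPM, against 75.3 to 84.1 CPM in V-OE, while of 6 tested 0 rose and 1 fell in Rara-OE and 3 rose and 2 fell in Rxra-OE (median log2 fold change 0.64). Neural crest markers summed to 91.0 to 95.2 CPM and 78.4 to 78.5 CPM, against 93.8 to 102.7 CPM in V-OE, while of 11 tested 1 rose and 1 fell in Rara-OE and 7 rose and 2 fell in Rxra-OE (median 0.98). Sum and tally thus differ in direction in Rxra-OE for the neuroectoderm, neural crest and endothelial lists (median of the endothelial list 0.206). The 10 genes' levels were read in the same RNA, and the part of these shifts in them was not tested. Of 8 VEGF ligands and receptors other than Kdr, 1 rose and 1 fell in Rara-OE, and 5 rose and 1 fell in Rxra-OE. Vegfc, a ligand of the VEGF family, fell in Rxra-OE (log2 fold change -3.20) as Flt1, another VEGF receptor, rose (3.39). Of 9 osteopontin receptors and bone matrix genes, 4 rose and 2 fell in Rara-OE, and 5 rose and 2 fell in Rxra-OE. The osteopontin receptor Cd44 rose (3.88) in Rxra-OE to 1.81 ± 0.0534 CPM, against 0.111 ± 0.0133 CPM in V-OE. Of 19 RA targets, 14 rose and 1 fell in Rara-OE and 18 rose and 0 fell in Rxra-OE.

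**Figure D5:**
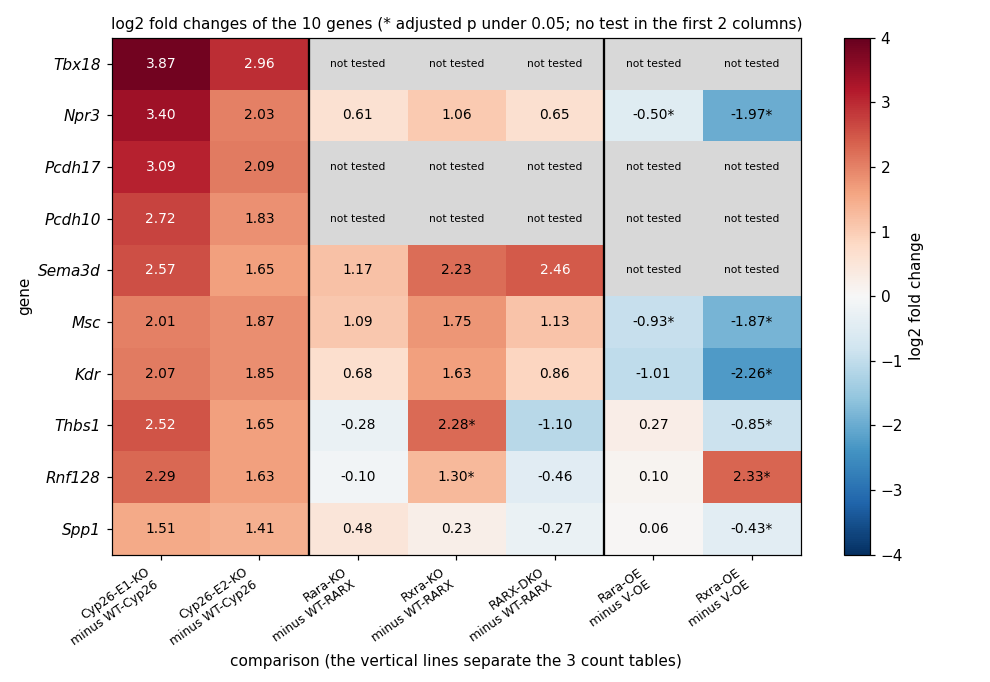
log2 fold changes of the 10 genes (rows) in 7 comparisons (columns), coloured from -4 to 4, with a star for an adjusted p under 0.05 where a test was made and grey for genes not tested. Npr3, Msc and Kdr are positive in the deletions and negative in Rxra-OE, and Rnf128 is positive in both deletions (2.29 and 1.63), in Rxra-KO (1.30) and in Rxra-OE (2.33).

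Read side by side, each table against its own control, the genes do not form a single pattern. Npr3, Msc and Kdr stood above wild type in both deletions, had positive differences in all 3 receptor knockouts that the edgeR fit of all groups did not call, and fell in Rxra-OE. The sign of Kdr was not stable without 1 library, in Rara-KO (-0.98 to 1.43) and in RARX-DKO (-0.12 to 1.42). For Msc in Rxra-KO, DESeq2, the fit without a filter and the fit of the 2 groups alone made the call, and for Kdr the fit without a filter did. In Rara-KO, Msc was called by edgeR without a filter (adjusted p = 0.0159) and in the fit of the 2 groups alone (adjusted p = 0.0302). In RARX-DKO it was called by edgeR without a filter (adjusted p = 0.00665). Thbs1 stood above wild type in both deletions, rose in Rxra-KO, was uncalled in RARX-DKO (-1.10) and fell in Rxra-OE. Its Rxra-KO call was lost in the edgeR fit of the 2 groups alone (adjusted p = 0.155), and the log2 fold change ran from 0.97 to 2.96 without 1 library. The fall of Thbs1 in Rxra-OE was lost in DESeq2 (adjusted p = 0.154). Rnf128 stood above wild type in both deletions and rose in Rxra-KO and in Rxra-OE, but stood at -0.46 (adjusted p = 0.366) in RARX-DKO. Its log2 fold change in Rxra-KO ran from 1.16 to 1.47 without 1 library, and the call was lost in some of these fits. Spp1 stood above wild type in both deletions, and its log2 fold changes against the controls of the other tables ran from -0.43 to 0.48, with a call in Rxra-OE alone in the fits of all groups. Its rise in Rara-KO was called in the fit of the 2 groups alone (0.51, adjusted p = 0.038). In Rxra-KO its log2 fold change was 0.83 without Rxra-KO replicate 1 and -0.77 without replicate 2. The comparisons within a table share their control libraries.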

How the data were processed

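Gene counts per RNA-seq library were used as the authors deposited them, in 3 tables that were each fitted alone. Per the submitters' processing notes, the tools included HISAT2 2.1.0, HTSeq 0.9.1 and DESeq2 1.18.1 with the mouse build mm10, without stating which step each served. The strand setting is not given in the sources used here. Counts were tested with edgeR 4.0.16 in R 4.3.3 by quasi-likelihood, with TMM scaling, a filter on low counts (filterByExpr, minimum count 10), all groups of a table in 1 fit and Benjamini-Hochberg adjustment over all tested genes at 0.05. CPM are counts divided by the TMM-scaled library size. DESeq2 1.42.0, library totals, no filter, fits of 2 groups, a replicate block and fits without each library were alternatives. On simulated counts the test recovered 52% of 2-fold and 90% of 4-fold changes for Rara-KO against WT-RARX, run on 16208 genes. The changes were placed only in genes with a mean above 1 CPM, so these shares do not cover rarer genes such as Sema3d. The genes described and the lists set beside them were chosen with earlier results of these data known. Genes outside the 10 were named from those lists where called, or by the 5 smallest profile differences, of which 1 is not reported here. Replicate numbers did not pair the samples. Floors of 3 counts cover counting error only, while SDs and standard errors include the spread between libraries.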

Additional observations from a re-analysis of the deposited data

How the results depend on the processing

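The log2 fold changes of all 10 genes in both enhancer deletions kept their direction under DESeq2, library totals, no filter, fits of 2 groups and the omission of each library. The genes were chosen by their rises in these same libraries, so this followed from the choice and gives no separate support. Counts of called genes among the 10 moved in the receptor tables, and the cause was not tested. Without the filter 1, 4 (Thbs1, Rnf128, Msc and Kdr) and 1 genes passed in Rara-KO, Rxra-KO and RARX-DKO against WT-RARX, where 551, 1084 and 981 of all genes did. In fits of the 2 groups alone 2 passed in Rara-KO (Msc and Spp1), where 588 of all genes did. In RARX-DKO minus Rxra-KO 1 passed, where 30 of all genes did. In Rxra-KO minus Rara-KO 1 passed, and the total over all genes in that fit is not given here. DESeq2 passed 1 in Rara-OE, where 2416 of all genes passed.

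Over all genes, DESeq2 called 253 in Rara-KO, 643 in Rxra-KO, 560 in RARX-DKO, 19 in RARX-DKO minus Rara-KO, 2416 in Rara-OE and 5024 in Rxra-OE minus Rara-OE. Library totals gave 1 for RARX-DKO minus Rara-KO. Without the filter the counts were 551, 1084 and 981 against WT-RARX, 1840 for Rxra-KO minus Rara-KO, 58 for RARX-DKO minus Rara-KO and 1366 for RARX-DKO minus Rxra-KO. Fits of 2 groups called 5731 in Cyp26-E2-KO, 588 in Rara-KO, 0 for RARX-DKO minus Rara-KO and 30 for RARX-DKO minus Rxra-KO. Library totals lowered the share of higher calls to 39.7%, against 51.6%, in Rxra-KO minus WT-RARX and to 25.8%, against 40.7%, in Rxra-KO minus Rara-KO (median shift -0.11), and raised it to 70.5%, against 57.6%, in RARX-DKO minus Rxra-KO.

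The replicate numbers did not pair the samples (correlations of deviations -0.214 to 0.121). A replicate block changed no count of called genes among the 10, with adjusted p = 0.0395 for Thbs1 and 0.0145 for Rnf128 in Rxra-KO by edgeR. For RARX-DKO minus Rara-KO a crossed pairing, chosen after seeing the data, called 1 of the 10 genes and 35 genes in all, against 0 and 1 with the block by number.

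Leaving out 1 library at a time gave 3413 to 6217 called genes in Cyp26-E1-KO, 1978 to 2220 in Cyp26-E2-KO, 8 to 29 in Rara-KO, 21 to 361 in Rxra-KO, 32 to 408 in RARX-DKO, 111 to 648 in Rxra-KO minus Rara-KO, 3 to 47 in RARX-DKO minus Rara-KO, 174 to 879 in RARX-DKO minus Rxra-KO, 3728 to 3925 in Rara-OE, 8765 to 9214 in Rxra-OE and 6391 to 7019 in Rxra-OE minus Rara-OE. Of the 10 genes it called 0 to 0, 0 to 5 and 0 to 1 in Rara-KO, Rxra-KO and RARX-DKO, 0 to 3 in Rxra-KO minus Rara-KO, 0 to 0 in RARX-DKO minus Rara-KO, 1 to 4 in RARX-DKO minus Rxra-KO, 1 to 2 in Rara-OE, 5 to 6 in Rxra-OE and 5 to 5 in Rxra-OE minus Rara-OE.

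Log2 fold changes that were uncalled with all libraries and changed sign without a library were Rnf128 (-0.24 to 0.064), Sema3d (-0.85 to 2.23) and Kdr (-0.98 to 1.43) in Rara-KO, Spp1 (-0.77 to 0.83) in Rxra-KO, Kdr (-0.12 to 1.42) in RARX-DKO and Spp1 (-0.012 to 0.13) in Rara-OE. In RARX-DKO minus Rara-KO they were Npr3 (-0.37 to 0.62), Kdr (-0.81 to 1.84) and Msc (-0.79 to 0.57), in Rxra-KO minus Rara-KO Spp1 (-1.25 to 0.33) and Npr3 (-0.37 to 1.04), and in RARX-DKO minus Rxra-KO Sema3d (-0.83 to 0.89), Spp1 (-1.08 to 0.49) and Npr3 (-0.93 to 0.41). Of these ends, Spp1 was called at 0.83, -1.25 and -1.08 (adjusted p = 0.0306, 0.00891 and 0.00695). Depth limits Tbx18, Pcdh17, Pcdh10 and Sema3d in the receptor tables.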

Other observations

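Vegfa, the ligand gene of the receptor Kdr, was called higher in both groups of the overexpression table, in which Kdr fell in Rxra-OE. It rose to 229 ± 7.87 CPM in Rara-OE and 159.8 ± 0.419 CPM in Rxra-OE, against 111 ± 5.45 CPM in V-OE (log2 fold changes 1.04 and 0.52, edgeR adjusted p = 8.1e-23 and 5.09e-12). Tbx15, a T-box relative of Tbx18, rose to 9.34 ± 0.563 CPM in Rara-OE and 16.4 ± 1.01 CPM in Rxra-OE, against 1.25 ± 0.619 CPM in V-OE (2.92 and 3.74, adjusted p = 1.88e-12 and 8.18e-19). Cyp26a1 itself stood at 535 ± 8.82 CPM in Rara-OE and 1092 ± 5.66 CPM in Rxra-OE, against 185 ± 1.19 CPM in V-OE.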
